A study of Mus musculus with 6 samples.

Results

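Zic1 and Zic4 are neighbouring genes on mouse chromosome 9, and the region described here is the stretch of mm9 from 91220000 to 91340000 on that chromosome, a window of 120 kb taken to hold both, which could not be checked against gene positions in mm9. Every peak that overlapped the window was taken, which gave 14 of the 43384 peaks in 3 deposited peak lists: 7 of 9470 for H3K27me3 in proliferating cultures, 2 of 15187 for H3K27me3 30 h after the start of differentiation, and 5 of 18727 for H3K4me3 in proliferating cultures. The window was chosen by its wide H3K27me3 domain and its several H3K4me3 peaks, so the width of that domain and the number of H3K4me3 peaks are given as a description and support nothing. Its edges lay 21.4 kb to the left and 21.1 kb to the right of the outermost peaks, and the nearest peak outside it, a proliferating H3K27me3 peak with a score of 88.33, was 101.2 kb from the leftmost proliferating H3K27me3 peak inside.

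The cells were neural stem cells (NSCs) from the subventricular zone (SVZ), a region of the mouse brain that goes on making neurons in adulthood. They were grown as monolayers from C57BL/6 mice and used at passages 5 to 7. Per the paper, its SVZ monolayers were started from tissue of early postnatal mice, not of adults. ChIP-seq, which recovers DNA bound to a modified histone with an antibody and sequences it, was done once for each mark and condition, with no genetic change or drug named for any of the libraries used. The labels name the proliferating H3K27me3 library and the H3K4me3 library N5 and the 30 h library N6, and call only the H3K4me3 culture ventral, so the marks may come from different cultures. Per the paper, H3K4me3 was profiled in proliferating cells. With 1 library each, no difference was tested, and since the lists hold no read counts the depth of each library is unknown. The lists hold no expression, so the identity of the cells could not be checked against marker genes.

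Zic1 and Zic4 encode zinc finger transcription factors of the Zic family, whose DNA-binding fingers resemble those of the GLI factors that act in Hedgehog signalling. Both genes are known for their part in the dorsal neural tube and in the growth of the cerebellum. H3K27me3 is placed by EZH2, the enzyme of Polycomb repressive complex 2, and marks repressed genes, often of developmental regulators, whereas H3K4me3 is found at the starts of active genes and of genes held ready. Promoters that carry both are called bivalent, and overlap of both marks in a population of cells does not show that they sit on the same chromosomes.

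The promoters of Zic1 and Zic4 are shown because promoters rich in CpG, the dinucleotide of C followed by G, are the usual places of both marks. Sequences are from RefSeq on the build GRCm38.p6, where each spans 250 bases before and 50 bases after the annotated start, 5′ to 3′ on the strand of the gene, with each CpG in capitals. The Zic1 promoter lies at chr9:91365719-91366018 on the minus strand and that of Zic4 at chr9:91368722-91369021 on the plus strand, so both genes are read away from each other. These positions belong to another build than the peaks and were not carried over, so no peak was assigned to either promoter.
Zic1: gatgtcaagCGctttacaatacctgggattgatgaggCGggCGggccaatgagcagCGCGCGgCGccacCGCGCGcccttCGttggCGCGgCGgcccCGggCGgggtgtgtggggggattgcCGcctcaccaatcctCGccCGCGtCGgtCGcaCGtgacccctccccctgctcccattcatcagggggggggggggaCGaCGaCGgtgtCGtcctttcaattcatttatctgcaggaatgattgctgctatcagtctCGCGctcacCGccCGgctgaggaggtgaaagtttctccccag
Zic4: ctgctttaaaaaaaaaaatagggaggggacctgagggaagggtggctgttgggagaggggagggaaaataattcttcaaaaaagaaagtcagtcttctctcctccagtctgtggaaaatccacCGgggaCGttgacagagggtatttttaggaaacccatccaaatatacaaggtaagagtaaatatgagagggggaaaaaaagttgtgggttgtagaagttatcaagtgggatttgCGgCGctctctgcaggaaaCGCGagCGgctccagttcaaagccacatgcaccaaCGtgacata
The Zic1 sequence held 31 CpGs and was 65.3% G or C, against medians of 7 CpGs and 52.7% over 32851 promoters of the same length, and 89.4% of promoters held fewer CpGs. The Zic4 sequence held 8 CpGs and was 46.0% G or C, and 51.4% of promoters held fewer. Of these 8, 6 lay in the last 150 bases. In the Zic1 promoter, counted from 1 at its 5′ end with the first transcribed base at 251, CCAAT began at bases 46 and 130, GGGCGG on either strand at bases 39, 99 and 267, and CACGTG at base 153, with no overlap between them. Over all promoters, 37.4% held CCAAT, 35.7% GGGCGG and 7.15% CACGTG on either strand. The Zic4 promoter held none of these letters, and neither promoter held TATAAA, found in 13.6%. These matches describe the sequence only. The promoters of the related genes Zic5, Gli2 and Gli3 held 15, 28 and 39 CpGs, so the CpG number of Zic1 lay between those of Gli2 and Gli3 and that of Zic4 was the lowest of these 5. In the same annotation no gene starts between Zic1 and Zic4. Their nearest other genes are the long noncoding RNAs Gm40545 and Gm29478, and the nearest other protein-coding genes are Tbc1d2b and Plscr5.

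In proliferating SVZ NSCs, H3K27me3 covered 65.2 kb of the window in 7 peaks that ran from 91244450 to 91317843, a span of 73.4 kb of which 88.8% lay under a peak. The score of a peak is the authors' value from MACS, their peak caller, and ranks peaks within a list only. A score of exactly 3100 was shared by 2.27% of this list and 3.30% of the 30 h list, with 13 and 18 peaks above it. Scores from 3100 upward are therefore not read as different strengths. The 3 leftmost peaks had the highest scores and were the widest. The largest, from 91268325 to 91303255, was 34.9 kb wide with a score of 3100, and was the 26th widest of the list. To its left, a peak from 91254679 to 91266881 was 12.2 kb wide and scored 3163.46, above 99.9% of the list. The leftmost peak, from 91244450 to 91250278, was 5.83 kb wide and scored 757.77, above 92.4% of the list. The 4 peaks on the right were narrow, from 2.61 to 3.40 kb, and scored 266.83, 140.16, 142.84 and 232.01 from left to right. Even the lowest of these exceeded 69.6% of the list, whose median score was 88.25 and median width 2074 bp. Scores were thus higher for the peaks in the left and middle of the domain than for those in its right part, which were also narrower. Whether the mark itself differed in strength along the domain was not tested, since the lists hold no read counts.

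At 30 h of differentiation, H3K27me3 covered 77.5 kb in 2 peaks from 91241403 to 91318926. The first, from 91241403 to 91314458, was 73.1 kb wide with a score of 3100 and was the 8th widest of 15187. The second, from 91314478 to 91318926, was 4.45 kb wide and scored 1141.73, above 90.6% of the list. Only 20 bp separated them, so that the 7 peaks of the proliferating list lay under what was nearly a continuous block. The covered length was 1.19 times that of the proliferating list, while over the whole lists the 30 h length was 2.52 times the proliferating length. Of the length marked in proliferating cultures, 30 h peaks covered 65187 of 65207 bp, which left out only the 20 bp between both 30 h peaks. Over the whole list, 30 h peaks covered 74.3% of the proliferating length. In the other direction, 84.1% of the 30 h length was marked in proliferating cultures, against 29.5% over the whole list. All 7 proliferating peaks overlapped a 30 h peak, as did 61.3% of the list, and both 30 h peaks overlapped a proliferating one, as did 30.7% of the list. The sharing at this locus was not separated from the strength of its peaks.

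**Figure D1:**
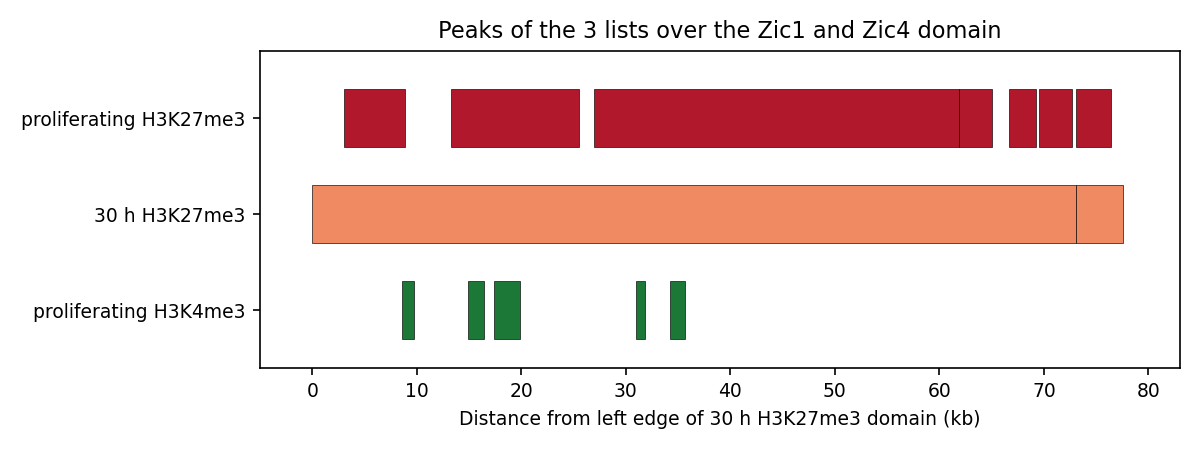
Peaks of the 3 lists (rows) over the Zic1 and Zic4 domain, drawn to scale against the distance from the left edge of the 30 h H3K27me3 domain (x axis, kb). The 2 peaks at 30 h cover 77.5 kb and span the 6 gaps between the 7 proliferating H3K27me3 peaks, and the 5 H3K4me3 peaks end 35.7 kb from the left edge.

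The 12.3 kb marked at 30 h and not in proliferating cultures lay mostly between the outer edges of the proliferating peaks. Of it, 8.19 kb filled the 6 gaps between proliferating peaks and 4.13 kb lay beyond their outer edges, 3.05 kb on the left and 1.08 kb on the right. The gaps were 4401, 1444, 70, 1580, 299 and 392 bp wide from left to right, and every one was wholly covered at 30 h. The choice of a window with a single wide domain largely fixes this, so nothing is read from it. Among all 1888 gaps of up to 4401 bp between neighbouring peaks of the proliferating list, 1212 were wholly covered at 30 h (64.2%, 95% Wilson interval 62.0 to 66.3%, for counting error only). The widest gap at Zic1 and Zic4, from 91250278 to 91254679, was the only 1 of the 6 that held H3K4me3. Of the gaps that held H3K4me3 in the whole list, 54 of 133 (40.6%) were wholly covered at 30 h. A gap in a list can be a dip below the threshold of the peak caller, so a filled gap does not show that the mark was absent before, and depth and culture cannot be told apart from differentiation here.

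H3K4me3 in proliferating cultures formed 5 peaks that covered 7.47 kb between 91249990 and 91277059, all in the left part of the domain. They began 8.59, 14.9, 17.4, 31.0 and 34.2 kb from the left edge of the 30 h domain. The strongest was the rightmost, from 91275603 to 91277059, which was 1456 bp wide and scored 1404.94. The widest was the middle peak, from 91258766 to 91261271, with 2505 bp and a score of 940.45. A peak from 91256330 to 91257810 was 1480 bp wide and scored 557.70, only 956 bp to the left of the middle peak. The leftmost, from 91249990 to 91251176, was 1186 bp wide and scored 297.59. The weakest, from 91272386 to 91273224, was 838 bp wide and scored 70.59. To the right of the last peak, 41.9 kb or 54.0% of the 30 h domain held no H3K4me3 peak, and the 4 proliferating H3K27me3 peaks with the lowest scores lay in that part.

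All 5 H3K4me3 peaks overlapped H3K27me3 in proliferating cultures and all 5 did so at 30 h, against 11.0% and 14.3% of all H3K4me3 peaks, and 10.2% of all overlapped it in both lists. The window was chosen for H3K4me3 under H3K27me3, so nothing is read from these counts. How far each peak was covered is given as a description too, since narrow peaks inside so wide a domain are bound to be covered for the most part. Peaks 2 to 5 from the left lay wholly under H3K27me3 in both lists. The leftmost peak differed. In proliferating cultures 288 of its 1186 bp (24.3%) lay under H3K27me3 and the other 898 bp lay in the widest gap, and at 30 h all of it was covered. In the genome, 34 of all 18727 H3K4me3 peaks (0.182%), this one included, were partly covered, for less than 50%, in proliferating cultures and wholly at 30 h. Only the 2051 peaks that overlapped proliferating H3K27me3 could enter this count, and only those covered for less than 50%. How many these were was not counted, so the share does not show how rare such a change is. By length, 6567 of the 7465 bp of H3K4me3 in the window lay under proliferating H3K27me3, and all of it at 30 h. H3K4me3 was not measured at 30 h, so whether these peaks were then still there is unknown. Seen from H3K27me3, 3 of the 7 proliferating peaks held H3K4me3 (19.5% of the list did) and 1 of the 2 peaks at 30 h did (16.0% of the list). The 12.2 kb peak held the most, 32.7% of its length, and the 34.9 kb peak held 6.57%.

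**Figure D2:**
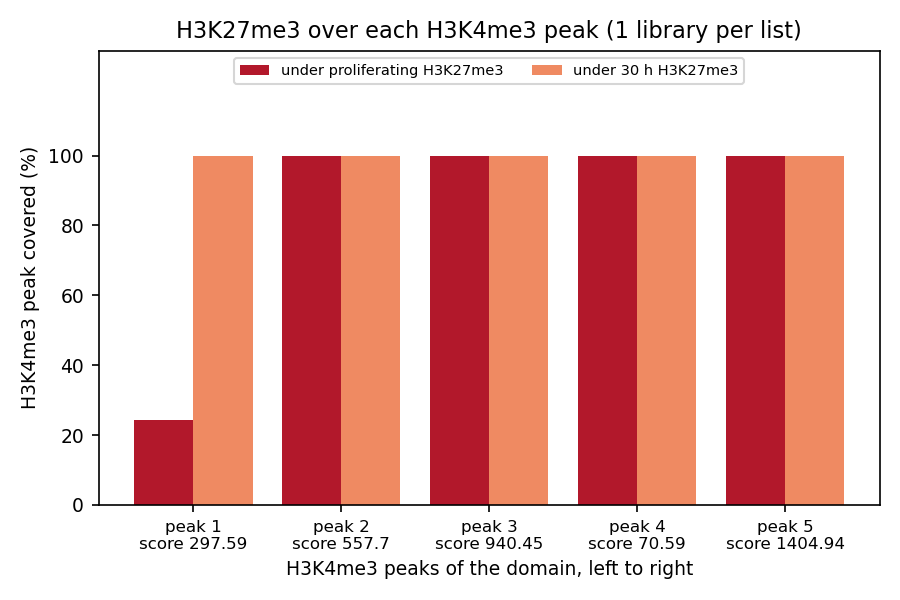
Share of each H3K4me3 peak (y axis, percent) that lay under H3K27me3 in proliferating cultures and at 30 h, for the 5 peaks from left to right (x axis, with their scores). Bars are single libraries, and only the leftmost peak differs between both lists, with 24.3% and 100%.

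The H3K4me3 peaks at Zic1 and Zic4 were weak for their list and ordinary for peaks under H3K27me3. Their median score was 557.70 against 2622.34 for the list, and each scored higher than only 4.96 to 39.3% of it. None reached 3100, the score shared by 44.9% of the list. Among the 1908 H3K4me3 peaks under H3K27me3 in both lists, the median score was 598 and the median width 1456 bp, and the 5 peaks stood above 35.9, 48.9, 62.1, 6.66 and 72.1% of these by score from left to right. Their median width was also 1456 bp. The 15905 H3K4me3 peaks without H3K27me3 in either list had a median score of 3100 and a median width of 2067 bp. The H3K27me3 peaks of the window had median scores above the list medians, 266.83 against 88.25 in proliferating cultures and 2120.86 against 154.75 at 30 h. The 30 h median is that of 2 peaks, 1 of them at 3100. Since the window was chosen for its wide H3K27me3 domain, nothing is read from these H3K27me3 scores.

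**Figure D3:**
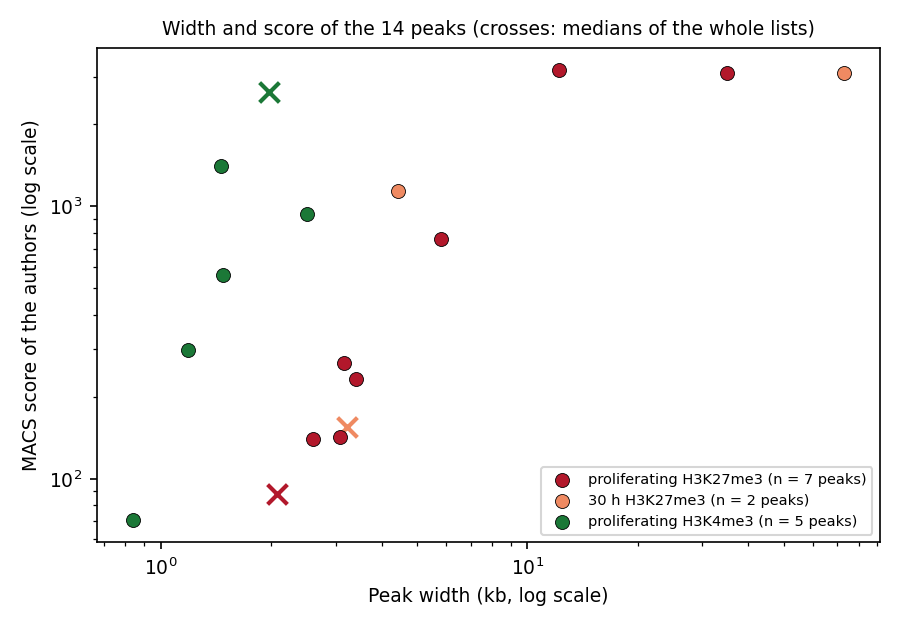
Width (x axis, kb, log scale) and score (y axis, log scale) of the 14 peaks, with a cross at the medians of each whole list. The 9 H3K27me3 peaks are 2.61 to 73.1 kb wide, and the 5 H3K4me3 peaks lie below the median score of their list, 2622.34.

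Beside other wide domains at 30 h, that of Zic1 and Zic4 had more of its length under peaks of the proliferating list than most. The window was chosen from these same lists for its wide domain and its H3K4me3 peaks. The shares below are therefore a description, and nothing is read from them. With peaks less than 3 kb apart joined, the 30 h list held 10640 domains, 111 of them at least 50 kb wide, and the domain at Zic1 and Zic4, 77.5 kb wide, was the 28th widest. In the proliferating list, the gap of 4401 bp kept the leftmost peak apart, and the rest formed a domain of 63.2 kb, the 10th widest of 7853. These ranks depended on how peaks were joined. With gaps of up to 1 kb joined, up to 10 kb joined and none joined, the rank was 26, 22 and 26 in the proliferating list and 16, 117 and 8 at 30 h. Proliferating peaks covered 84.1% of the 30 h domain, against a median of 50.2% and a range of 3.99 to 99.9% over the 111, and 10 of these had a higher share. The outer proliferating peaks enclosed 94.7% of the 30 h domain, against a median of 76.8%, and 21 of the 111 had a higher share. Both shares are of the joined width, gaps between joined 30 h peaks included. Here 2 peaks with a gap of 20 bp were joined. H3K4me3 peaks covered 9.63% of the domain, against a median of 1.44%, and 4 of the 111 had a higher share. Of the 111, 46 held no H3K4me3 peak, the median was 1 and 7 held 5 or more, including this domain. The widest of the others with 5 or more lay on chromosome 6 from 52092824 to 52283913 (191.1 kb, 5 H3K4me3 peaks), chromosome 17 from 36255425 to 36379736 (124.3 kb, 10 peaks) and from 35516490 to 35612872 (96.4 kb, 5 peaks), chromosome 8 from 126060535 to 126152215 (91.7 kb, 48 peaks) and chromosome 1 from 74778846 to 74858895 (80.0 kb, 6 peaks). The longest stretch without an H3K4me3 peak was 83.5 kb in the domain on chromosome 6 and 41.9 kb at Zic1 and Zic4. The part of the domain between its first and last H3K4me3 peak was 34.9% here, against a median of 41.0% over the 35 wide domains with at least 2 such peaks, 19 of which had a larger part.

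**Figure D4:**
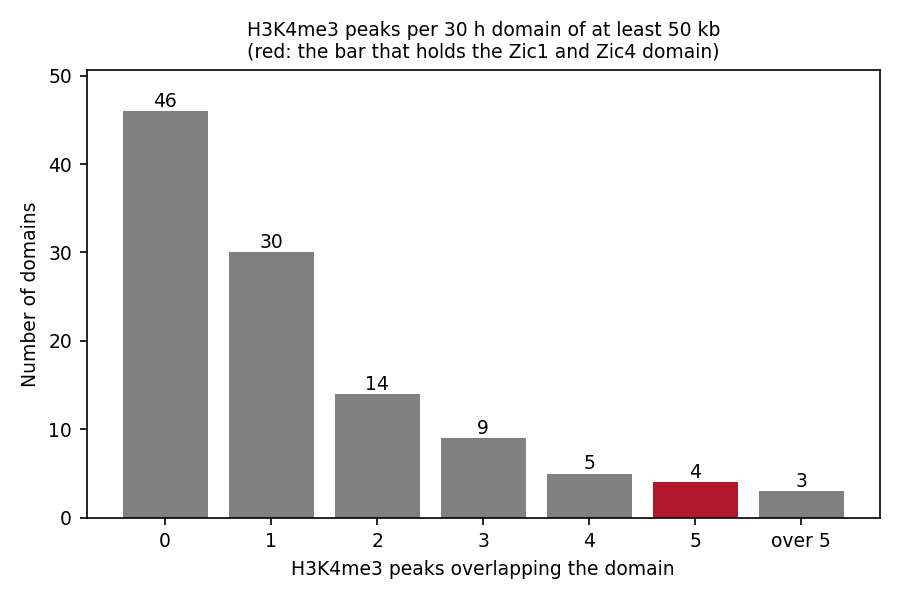
Number of 30 h H3K27me3 domains of at least 50 kb (y axis) by the number of H3K4me3 peaks that overlap them (x axis), 111 domains in 1 library. The red bar holds the Zic1 and Zic4 domain and 3 others with 5 peaks, and 46 domains hold none.

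At 30 h the domain stood far from any other H3K27me3 peak. In that list the nearest peak on the left, from 90011828 to 90016384, was 1225.0 kb away, and the nearest on the right, from 94351221 to 94355884, was 3032.3 kb away. Over the 111 wide domains the median distance to the nearest other 30 h peak was 5.99 kb, and no other was as far from its neighbour as this domain. The next most distant, on chromosome 4, lay 581.5 kb from its neighbour. Because peaks less than 3 kb apart were joined, no distance could be shorter than 3 kb, and the median depends on this rule. With gaps of 10 kb joined it was 18.3 kb over 305 domains of at least 50 kb. Narrow domains were as isolated in some places, since 100 of all 10640 domains (0.940%) were farther from their neighbour. The flanks held H3K4me3 peaks, but these too were distant, the nearest being 825.6 kb from the domain, against a median of 35.9 kb, and 1 of the 111 domains had a more distant one. In proliferating cultures the flanks were less empty, and the nearest H3K27me3 peak outside lay 98.1 kb from the 30 h domain, against a median of 20.4 kb, which placed the domain 14th of the 111. H3K27me3 peaks of 2297 bp on the left and 2525 bp on the right stood 101.2 and 215.4 kb from the outer proliferating peaks, with scores of 88.33 and 75.26, the first near and the second below the list's median of 88.25, and neither was covered by a 30 h peak. The distance was looked at after the values were seen. Which of the empty flanks hold genes was not determined in mm9.

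**Figure D5:**
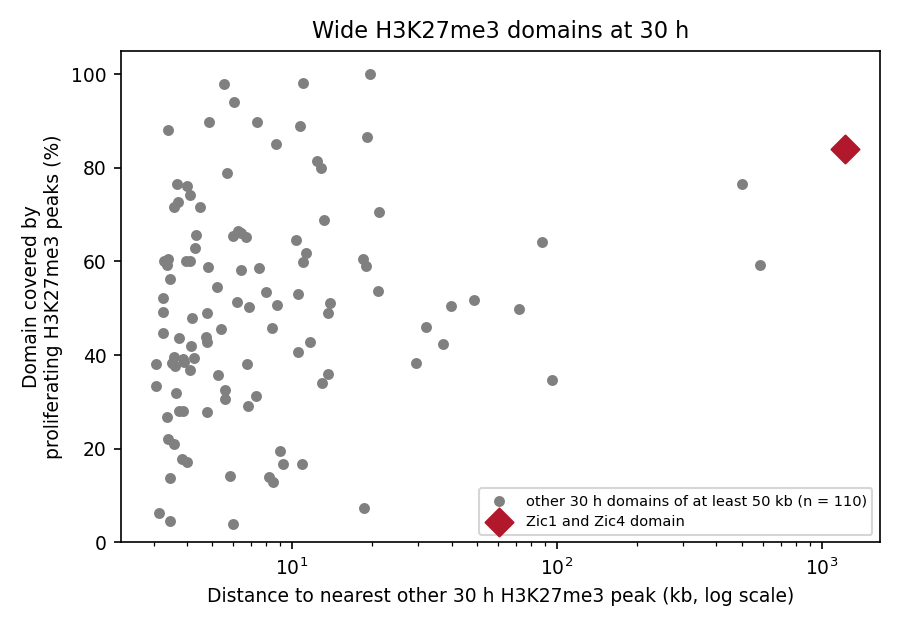
Share of each 30 h H3K27me3 domain of at least 50 kb that proliferating peaks cover (y axis, percent) against the distance to the nearest other 30 h peak (x axis, kb, log scale), 1 library each. The Zic1 and Zic4 domain (diamond) lies at 84.1% and 1225.0 kb, and the 110 other domains (grey) lie within 581.5 kb of a neighbour.

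Set against the whole genome in 21997 windows of the same width on the placed chromosomes other than Y, 18 windows (0.0818%) held at least as much proliferating H3K27me3 as the window of Zic1 and Zic4, and 67 (0.305%) held at least as much at 30 h. At least 5 H3K4me3 peaks were found in 586 windows (2.66%), and 4 windows (0.0182%) reached all 3 values. The window was placed to hold the whole domain whereas the others were laid end to end and can cut a domain, so these shares describe its place in the lists and are no test.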

How the data were processed

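The sources used were the deposited peak lists of 3 ChIP-seq libraries from SVZ NSC monolayer cultures. The input libraries were not used here, so the domain was not compared with input DNA. Per the submitters' processing notes, reads were aligned with Bowtie2 and the build was mm9. The authors called peaks with MACS, which was run for H3K27me3 with neither a model nor local lambda, and the deposited score is their value for each peak, used here only within a list. Not given in the sources used here are the version and threshold of MACS and how it was set for H3K4me3. Starts and ends are printed as the authors' files give them, and a width is the end minus the start.

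Overlap meant at least 1 bp in common, and covered length counted each base once. Domains were made by joining peaks less than 3 kb apart, and the genome was tiled by windows of 120 kb. Python 3.11.15, numpy 2.4.6, pandas 2.3.3, scipy 1.17.1 and matplotlib 3.10.9 were used, and the interval code was checked on simulated data against a count base by base. The window and the lists were chosen with earlier results of these data known. Genes named as members were Zic1 and Zic4, every peak in the window was described, and outside it the nearest peaks and up to 5 domains with at least as many H3K4me3 peaks were named, in order of width. The domain on chromosome 4 was named after its value was seen. Gene names, gene order and promoters came from RefSeq for GRCm38, and peaks were given by coordinates because mm9 gene positions were not used. With 1 library per condition no test was run, and depth is unknown.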

Additional observations from a re-analysis of the deposited data

How the results depend on the processing

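Of 34 alternatives to the values above, 22 stayed within 1.5 times of them. The ratio of 30 h to proliferating length was 1.19 with the stronger 50% of each list, with the 30 h list cut to 9470 or to 2196 peaks, in a window widened by 60 kb on each side and with whole peak widths, and 1.12 after joining peaks less than 3 kb apart. All settings but the joining kept every H3K27me3 peak of the window and added none, so they could not move this ratio. The same holds for the share of proliferating length covered at 30 h. These settings are counted among the 22. With at least 50% of the peak covered, 4 of the 5 H3K4me3 peaks lay under proliferating H3K27me3 and 5 at 30 h. With the stronger 50% of each list both counts were 0, because no H3K4me3 peak of the window reached the lowest score kept, 2623.10. The width rank in the proliferating list was 26 with gaps of 1 kb joined, 22 with 10 kb and 26 for single peaks, and at 30 h it was 16, 117 and 8 under the same settings. With windows moved by 60 kb, 0.0455% of them held as much proliferating H3K27me3. Chosen after seeing the data, the rank by distance to the nearest 30 h peak was 2 among domains of at least 30 kb, 14 among those of at least 10 kb, 2 with the stronger 50% of the list and 1 with gaps of 10 kb joined. The share of windows with as many H3K4me3 peaks was not computed with the stronger 50%, since none was left. Apart from the smaller lists, why the values shifted was not tested. Unknown depth limits every comparison between lists. No paired analysis was possible because each condition had 1 library.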
